A study of Mus musculus with 3 samples.

Results

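A set of 7 genes that build or anchor the extracellular matrix on the apical face of cochlear epithelium was followed: Otog, Otogl, Tecta, Tectb, Otoa, Ceacam16 and Epyc. The genes were chosen by symbol, and each matched 1 row of the deposited count tables, which hold 31053 genes. The samples were 3 single-cell RNA libraries (10x Genomics 3' chemistry, version 3.1) from the sensory epithelium of cochlear explants of rtTA/tet-on-Myc/tet-on-NICD mice aged 4 to 6 weeks. All 3 carried every transgene, which place the transcription factor MYC and the Notch1 intracellular domain (NICD) under doxycycline (Dox). The Control group, given sterile water, was 1 library from 4 pooled cultures, and the Dox group was 2 libraries, each from 4 pooled cultures kept with 2 µg/ml Dox. Explants were held in DMEM/F12 with N2 and B27, and the time in culture was 4 days. The labels name no promoter for rtTA, and no library with Dox but without the transgenes was analysed here. The study asked, by its title, about reprogramming of supporting cells, which flank and hold the hair cells of the sensory epithelium.

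The tectorial membrane is the sheet of matrix above the hair cells that deflects their stereocilia when sound moves the cochlear partition. Its striated sheet is built on alpha-tectorin (Tecta) and beta-tectorin (Tectb), which polymerise through zona pellucida domains, and on the adhesion molecule CEACAM16. Otogelin (Otog) and otogelin-like (Otogl) are large mucin-related glycoproteins of the same matrix, otoancorin (Otoa) attaches it to the spiral limbus, and epiphycan (Epyc) is a small leucine-rich proteoglycan made by supporting cells. Tecta and Tectb are best known from the growing cochlea, and hereditary deafness is linked to Tecta, Otog, Otogl, Otoa and Ceacam16 in people.

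In the GENCODE M21 annotation of mouse genome GRCm38, Otog lay at chr7:46240987-46311434 on the plus strand with up to 56 exons, and Otogl at chr10:107760531-107912134 on the minus strand with 58. Tecta lay at chr9:42329619-42399929 on the minus strand, Tectb at chr19:55180733-55196313 on the plus strand and Otoa at chr7:121081650-121163097 on the plus strand. Ceacam16 lay at chr7:19852097-19861299 on the minus strand and Epyc at chr10:97644068-97682454 on the plus strand. An annotated gene on the opposite strand overlapped Tecta (Gm47629), Ceacam16 (Gm19345) and Epyc (Gm10754), so that reads of these pairs are separated only if strand was used in counting. Tectb overlapped the microRNA gene Mir6715 on the same strand, a pair that strand does not separate.

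Since both induced factors act at DNA, the 250 bases before the RefSeq start sites (build GRCm38.p6) were read for 3 motifs on both strands. These were CACGTG, the palindromic E-box bound by MYC with its partner, TGGGAA, which reads as TTCCCA on the opposite strand, the core bound by RBPJ, the partner of NICD, and the TATA box letters TATAAA, which read as TTTATA on the opposite strand. Of 7 windows from Otog, Otoa, Tecta, Tectb and Epyc, 1 held any of them: the Tectb window had TTCCCA 136 bases before the start. No window was available for Otogl and Ceacam16, so neither gene was read for motifs. Of all 32851 windows of this length, 6.02% held CACGTG, 21.6% TGGGAA and 12.4% TATAAA in either direction. The windows of Epyc and Otog are shown because both genes were lower with Dox in a class tested here, and that of Tectb for its match, in capitals. They came from chr10:97643818-97644067, chr7:46240737-46240986 and chr19:55180476-55180725, all on the plus strand.
Epyc: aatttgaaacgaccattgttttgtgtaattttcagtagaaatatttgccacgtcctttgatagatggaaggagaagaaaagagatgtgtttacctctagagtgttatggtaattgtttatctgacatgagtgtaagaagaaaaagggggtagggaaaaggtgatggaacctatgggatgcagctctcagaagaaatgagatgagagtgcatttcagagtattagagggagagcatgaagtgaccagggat
Otog: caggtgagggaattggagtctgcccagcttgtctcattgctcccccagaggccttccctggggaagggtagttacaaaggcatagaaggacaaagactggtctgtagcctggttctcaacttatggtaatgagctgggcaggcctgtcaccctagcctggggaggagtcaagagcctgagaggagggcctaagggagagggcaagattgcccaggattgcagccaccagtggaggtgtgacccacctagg
Tectb: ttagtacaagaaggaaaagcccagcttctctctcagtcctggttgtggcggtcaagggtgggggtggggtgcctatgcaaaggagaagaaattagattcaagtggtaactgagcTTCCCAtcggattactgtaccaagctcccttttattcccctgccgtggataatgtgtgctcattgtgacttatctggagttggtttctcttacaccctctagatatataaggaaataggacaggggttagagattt
GC content was 39.2%, 57.2% and 46.0% in these windows, against a median of 52.4% over all windows. A match describes letters and no match describes only these windows.

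The libraries held 512 (Control), 788 (Dox replicate 1) and 1095 (Dox replicate 2) barcodes with 5436731, 20309102 and 33385927 UMIs. The same barcode stood in 2 or 3 libraries 125 times, and the 193 shallower entries had 0.259% to 1.68% of the UMIs of the deepest one; these entries were left out, by a rule chosen after seeing the data. After filters on gene number and mitochondrial share, 283, 595 and 925 cells were kept, with medians of 12829, 20441 and 29877 UMIs. Notch1 was at 35.3 CPM in Control and at 433 and 494 CPM in the Dox libraries among supporting cell-like cells (log2 fold change 3.71, SE 0.34, edgeR adjusted p = 9.2e-07), and Myc rose there too (log2 2.17, SE 0.63, adjusted p = 0.0367). 3' UMIs do not separate transgene from endogenous RNA. A Notch response check held 8 genes, Notch1 and Myc among them, so it is not independent of the induced genes. Of the 8, 7 rose in supporting cell-like cells and 5 in all epithelial cells, and 0 fell in either. Of all genes tested, 6.82% rose in supporting cell-like cells and 14.2% in all epithelial cells.

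Cells were grouped into 19 clusters without using the 7 genes, and 9 clusters with 69, 365 and 661 cells were epithelial by Epcam. Supporting cell-like cells (23, 57 and 26 cells) were named from Gjb6, Rorb, Gjb2, Fabp7, Lfng, Hes5 and Sox2. A cluster led by Lum and Aqp4 (11, 40 and 48 cells), a cluster led by Wfdc18 and Gabrp (1, 44 and 142 cells) and a cycling cluster (1, 26 and 60 cells) also bear on the results. So do a Reissner membrane-like cluster (16, 20 and 90 cells) and a cluster with Fut9 and Lypd2 among its leading genes (0, 18 and 118 cells). The library labels give the tissue as sensory epithelium, and 12, 12 and 11 of 13 hair cell markers had UMIs among the supporting cell-like cells, with Slc26a5, the outer hair cell motor protein prestin, at 0 in all 3 libraries.

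RNA of Otog, Otogl, Otoa, Ceacam16 and Epyc was found almost entirely in epithelium. UMIs outside it numbered 0, 3 and 0 for Otog and 0, 4 and 5 for Otogl, of totals of 223, 462 and 244 and of 29, 242 and 476. For Ceacam16 they numbered 2, 1 and 12 of 819, 1833 and 889, and for Epyc 2, 0 and 92 of 2507, 3799 and 6208. Of the 92 Epyc UMIs, 48 stood in 1 cell of an unnamed cluster and 40 in 1 macrophage-like cell. Otoa had 1, 5 and 4 UMIs outside of 57, 219 and 251. Tecta had 1, 2 and 2 of 1, 4 and 9 and Tectb 0, 3 and 2 of 2, 5 and 677, so the few Tecta UMIs could not be placed. In macrophage-like cells (23, 45 and 24 cells, median 7810, 10483 and 23459.5 UMIs) Otog, Otogl, Tecta, Tectb and Otoa had no UMI in any library.

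Where each gene's RNA lay within the epithelium differed from gene to gene. Supporting cell-like cells held 76.8% of Ceacam16 UMIs in Control, 60.1% in Dox replicate 1 and 21.8% in Dox replicate 2, while the Wfdc18/Gabrp cluster held 0%, 30% and 63.2%. Otog lay mainly in supporting cell-like cells (49.8%, 69.5% and 51.2%). The next largest share was in the Lum/Aqp4 cluster in Control (44.8%, against 9.09% and 13.9% with Dox) and in the Wfdc18/Gabrp cluster with Dox (15.2% and 29.5%, against 0% in Control). Epyc was in the Lum/Aqp4 cluster for 97.2% of its UMIs in Control and for 51.5% and 38.9% with Dox. These shares follow cell numbers as well as levels: the Wfdc18/Gabrp cluster had 1 cell in Control.

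**Figure D1:**
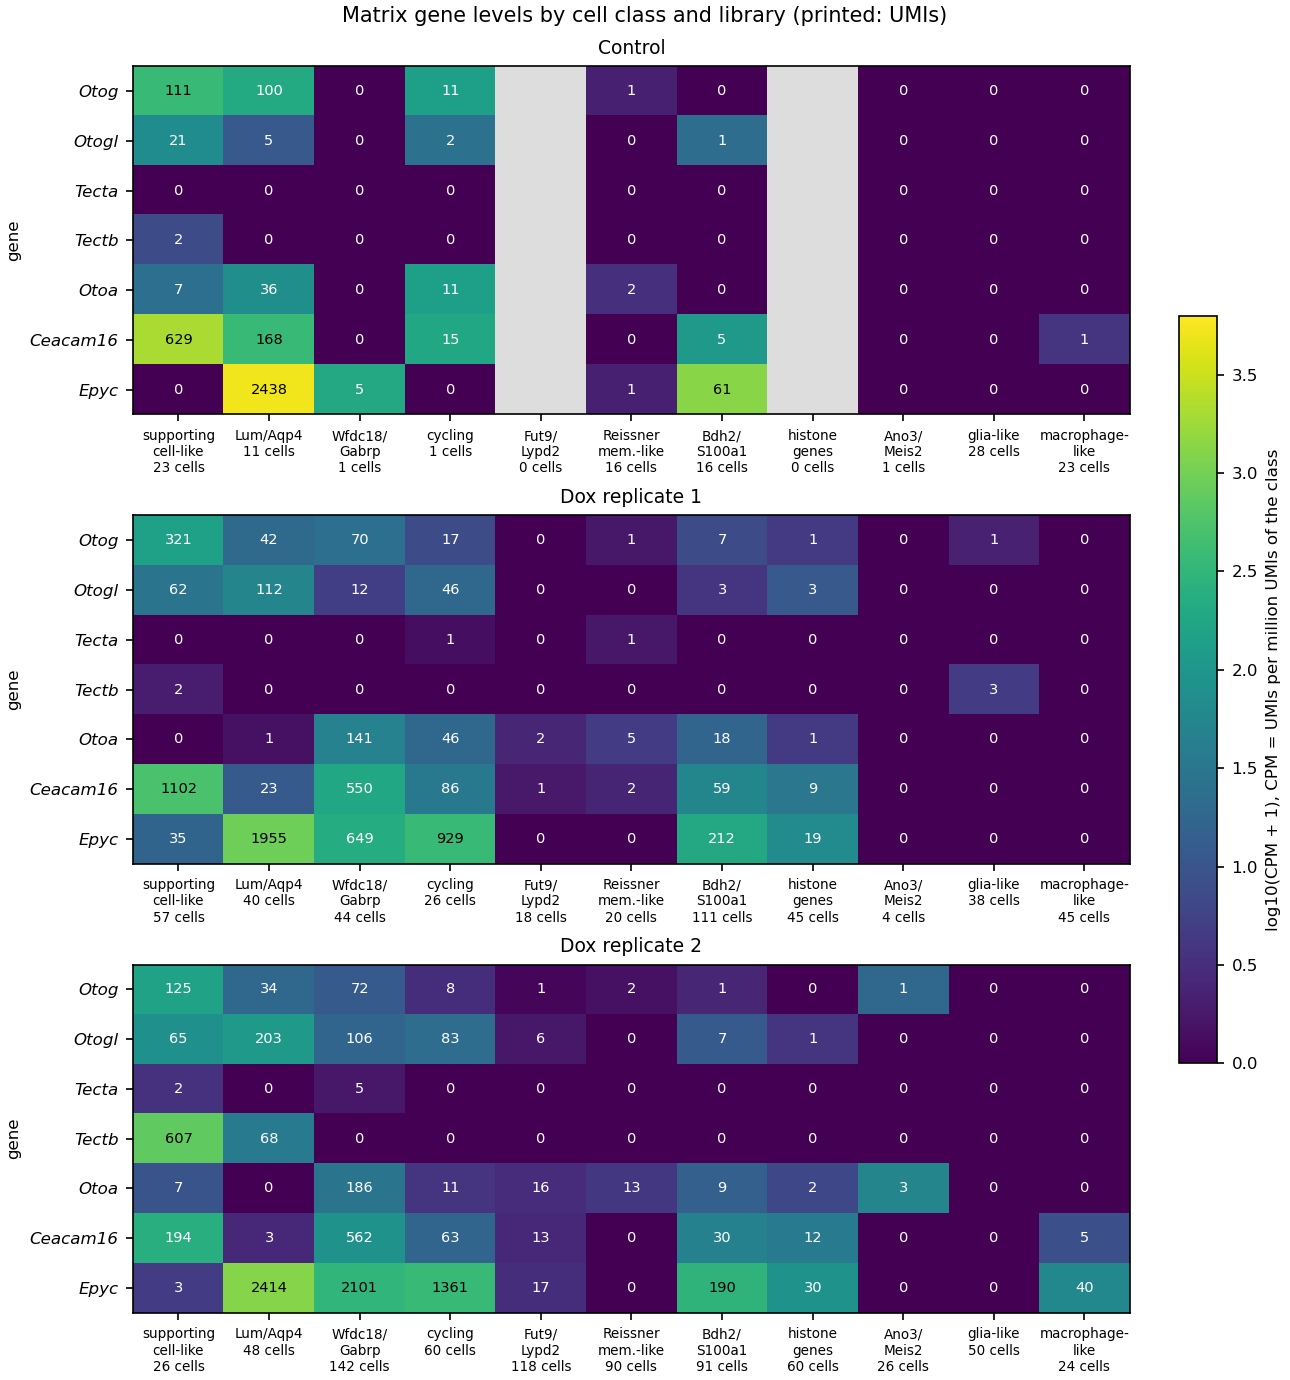
Level of each gene (rows) in the epithelial classes and in glia-like and macrophage-like cells (columns), 1 panel per library. Colour gives log10(CPM + 1) of the class, printed numbers are UMIs, and grey marks classes with no cell; Ceacam16 had 629 UMIs in Control supporting cell-like cells and Epyc 2438 in the Control Lum/Aqp4 cluster.

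**Figure D2:**
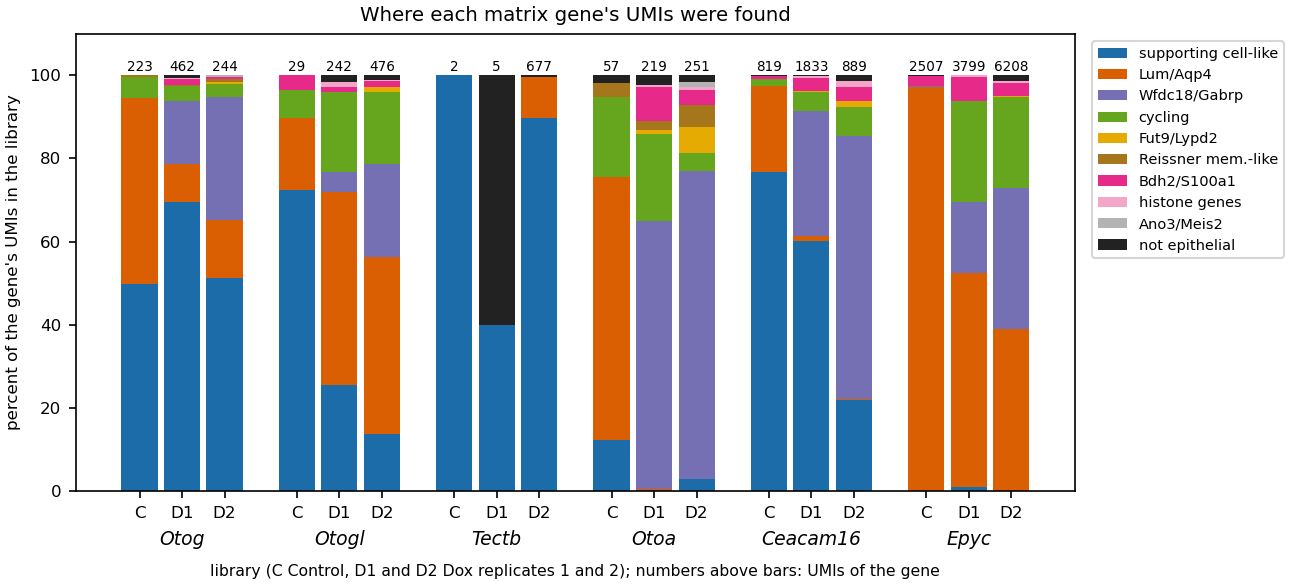
Share of each gene's UMIs (percent, vertical axis) by class in Control (C) and Dox replicates 1 and 2 (D1, D2), with the gene's UMIs per library above each bar. Tecta, with 1, 4 and 9 UMIs in all, is not drawn, and the Otoa bars pass from the Lum/Aqp4 cluster (63.2% in Control) to the Wfdc18/Gabrp cluster (64.4% and 74.1% with Dox).

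Supporting cell-like cells were the epithelial class with at least 20 cells in every library and could be tested by sums per library. Ceacam16 and Otog were lower with Dox, Otogl did not pass the test, and Tectb was high in 1 Dox library. Of 5 genes tested 2 were called, both lower, where 10.4% of all 8903 genes tested were called in either direction, 3.54% as lower and 6.82% as higher. The median log2 fold change of the 5 was -0.03 and that of all genes 0.03. Genes called higher were 65.8% of all calls with TMM scaling and 24.3% with total count scaling, which moved the median of all genes to -0.47 and left Ceacam16 (-2.48) and Otog (-1.31) lower. The control is a single library, so its own spread could not be measured, and a class sum does not separate fewer high cells from less RNA per cell.

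Ceacam16 was at 1709 CPM (UMIs per 1000000 UMIs, TMM-scaled) in Control, 586 in Dox replicate 1 and 269 in Dox replicate 2, from 629, 1102 and 194 UMIs. Both Dox libraries lay below the Control library. The fitted level was 3.94-fold lower with Dox (log2 -1.98, SE 0.29, edgeR quasi-likelihood test, Benjamini-Hochberg adjusted p = 0.000221). Fitted with DESeq2, the log2 fold change was -2.01 and the adjusted p 0.245, so the call rests on edgeR's test. With Dox replicate 1 left out the value was -2.68 and with Dox replicate 2 left out -1.58, both with no test.

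Cells differed widely in Ceacam16. A UMI of it was found in 65.2%, 57.9% and 42.3% of supporting cell-like cells (median 6701, 8986 and 22704 UMIs per cell), against 0.935%, 0.435% and 1.89% of cells outside the epithelium (median 12800, 24342.5 and 21581 UMIs). In cells thinned to 1000 UMIs, with 2, 6 and 0 cells left out, the shares were 47.6%, 23.5% and 15.4%. The median cell had 2.49, 0.36 and 0 UMIs of Ceacam16 per 10000. The single highest cell held 258 of the 629 Control UMIs (41.0%), 189 of 1102 (17.2%) and 83 of 194 (42.8%), and without these cells the log2 fold change was -1.72 (edgeR adjusted p = 0.000542).

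Otog was at 302 CPM in Control and at 171 and 173 CPM in the Dox libraries, from 111, 321 and 125 UMIs. The Dox libraries lay close together and below Control. The fitted level was 1.75-fold lower (log2 -0.81, SE 0.24, edgeR adjusted p = 0.0394). The call was lost without the highest cell of each library (log2 -0.38, adjusted p = 0.401), with cells of little Malat1 left out (-0.65, adjusted p = 0.160) and in DESeq2 (-0.82, adjusted p = 0.363). It was also lost under a stricter cell filter (log2 -0.82, adjusted p = 0.0855), with the 7 genes among the clustering genes (-0.81, 0.0613) and with the copies of shared barcodes kept (-0.91, 0.0629). In Control 49 of the 111 Otog UMIs (44.1%) came from 1 cell.

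Otogl, the close relative of Otog, was at 57.1 CPM in Control, 33.0 in Dox replicate 1 and 90.2 in Dox replicate 2, from 21, 62 and 65 UMIs. The Dox libraries lay on either side of Control. The log2 fold change was -0.03 with an SE of 0.53 (edgeR adjusted p = 0.986), and without Dox replicate 1 it was 0.64.

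Tectb differed between the 2 Dox libraries. It had 2 UMIs in Control, 2 in Dox replicate 1 and 607 in Dox replicate 2, or 5.44, 1.06 and 842 CPM. The ratio of Dox replicate 2 to Control, unscaled, was 112 with a 95% counting interval of 31.0 to 929, and that of Dox replicate 1 was 0.14 with an interval of 0.01 to 1.88. The test across both (log2 6.18, SE 2.52) gave an edgeR adjusted p of 0.137. It passed the test with total count scaling (adjusted p = 1.15e-11), with no low-count filter (7.23e-30) and in thinned cells (0.0013), although Dox replicate 1 had no more Tectb UMIs than Control.

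The Tectb RNA came from few cells. At least 10 Tectb UMIs were found in 5 cells, all in Dox replicate 2, and the 3 among supporting cell-like cells, with 289, 159 and 138 UMIs, held 96.5% of the class total there. They also had 24, 8 and 13 UMIs of Otog, 12, 13 and 12 of Otogl and 2, 2 and 5 of Ceacam16. The other 2, with 45 and 21 Tectb UMIs, were in the Lum/Aqp4 cluster and had 175 and 146 UMIs of Epyc. The high cells of both classes thus had UMIs of Otog and Otogl as well. Any Tectb UMI was found in 1 of 23 supporting cell-like cells in Control, 2 of 57 in Dox replicate 1 and 9 of 26 in Dox replicate 2.

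Of the remaining genes in this class, Epyc had 0, 35 and 3 UMIs. Against a floor of 3 counts, Dox replicate 1 was at least 1.59-fold higher than Control, and the edgeR adjusted p was 0.127 (0.0266 with no low-count filter and 0.00602 at cluster resolution 2). The highest and second cell of Dox replicate 1 held 19 and 13 of its 35 Epyc UMIs, at depths of 199789 and 195370 UMIs. Otoa had 7, 0 and 7 UMIs. Dox replicate 1 was at least 17.1-fold lower than Control, and the ratio of Dox replicate 2 to Control was 0.37 (95% counting interval 0.11 to 1.24). Of the Otoa UMIs, 4 of 7 in Control and all 7 in Dox replicate 2 came from 1 cell each, and without that cell Control had 3, which is at the floor. Tecta had 0, 0 and 2. Otoa and Tecta did not pass the filter on low counts and were not tested.

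Other values moved with these differences in the same class. The summed level of 17 supporting cell markers was 10079, 5773 and 5145 CPM, with 16, 17 and 17 of them detected and Hes5 the one at 0 in Control, and that of 13 hair cell markers 1934, 557 and 489 CPM. A single Control cell held 496 hair cell marker UMIs, and the highest cells of Dox replicates 1 and 2 held 605 and 136. The hair cell marker sums thus rest largely on few cells. The 7 cycling markers summed to 13.4, 239 and 121 CPM with 3, 7 and 7 detected. Cells poor in the nuclear RNA Malat1 made up 52.2%, 56.1% and 46.2% of the class. Without the Malat1-poor cells the Ceacam16 log2 fold change was -2.10 (edgeR adjusted p = 0.00571), while the Otog call was lost, as given above. The part of the marker shifts in these results was not tested.

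**Figure D3:**
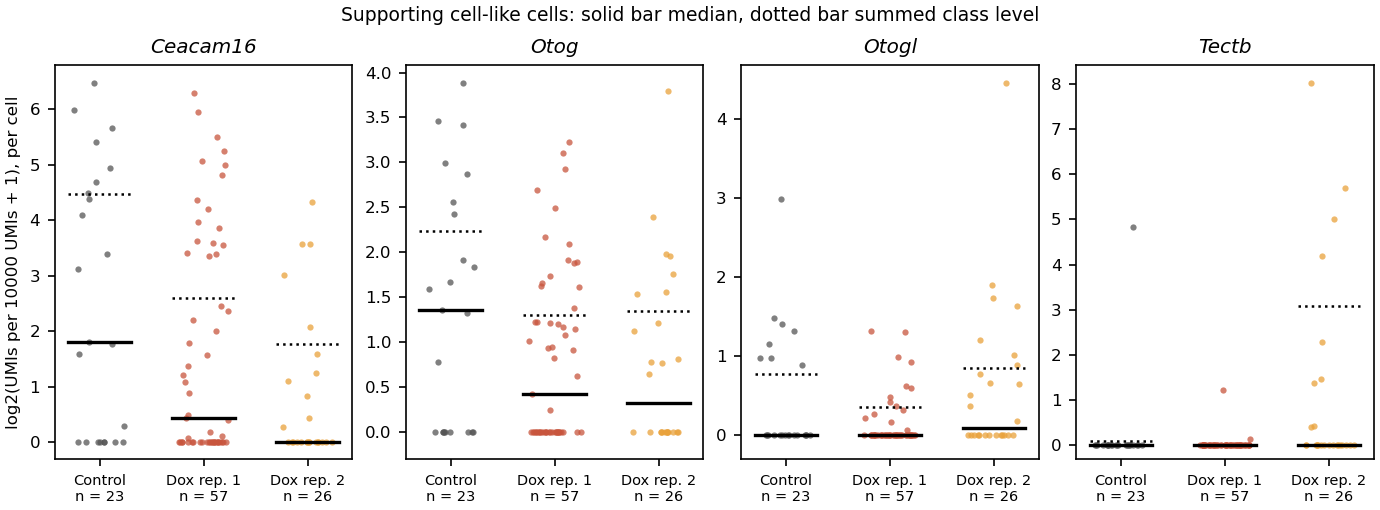
Ceacam16, Otog, Otogl and Tectb per supporting cell-like cell, as log2(UMIs per 10000 UMIs + 1), in Control (23 cells) and Dox replicates 1 and 2 (57 and 26 cells). Solid bars are medians over cells and dotted bars the summed class level; for Ceacam16 the dotted bar falls from Control to both Dox libraries, and for Tectb a few cells of Dox replicate 2 lie apart.

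The Lum/Aqp4 cluster was the main site of Epyc in Control, and its levels there are described with no test because it had 11 Control cells. Epyc was found in 100% of its cells in every library, at 5185 CPM (unscaled) in Control and 928 and 1304 CPM in the Dox libraries, from 2438, 1955 and 2414 UMIs. Both Dox libraries were below Control, with ratios of 0.18 (95% counting interval 0.17 to 0.19) and 0.25 (0.24 to 0.27). The median cell had 56.1, 10.1 and 12.3 Epyc UMIs per 10000, at median depths of 35736, 48390.5 and 33749.5 UMIs. In cells thinned to 1000 UMIs the levels were 4273, 900 and 1729 CPM. The 2 highest Control cells held 1110 of the 2438 UMIs. Without the 2 highest cells of each library the levels were 3741, 913 and 1141 CPM.

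Otog, Ceacam16 and Otoa were also lower with Dox in this cluster. Otog was at 213 CPM in Control and at 19.9 and 18.4 CPM with Dox, 10.7-fold and 11.6-fold lower. Ceacam16 was at 357, 10.9 and 1.62 CPM, from 168, 23 and 3 UMIs. Of its 168 Control UMIs 135 came from 2 of 11 cells, the median Control cell had 0, and without the 2 highest cells of each library the levels were 80.9, 0.991 and 0 CPM. Otoa, the limbal anchor, had 36 UMIs in Control against 1 and 0, and Dox replicate 2 was at least 47.3-fold lower. That bound rests on 2 Control cells, which held 35 of the 36 UMIs.

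The marker levels of the Lum/Aqp4 cluster differed between the same libraries. The 17 supporting cell markers summed to 7244, 2623 and 2468 CPM with 14, 15 and 17 detected, and Prox1, Hes5 and S100b were at 0 in Control. The 8 fibroblast markers summed to 1129, 253 and 418 CPM with 4, 4 and 5 detected and Col1a1 at 0 in all 3 libraries, and the 7 cycling markers to 12.8, 791 and 517 CPM with 3, 7 and 7 detected. Lum, a leading gene of this cluster, is 1 of the 8 fibroblast markers. The part of these marker shifts in the levels of Epyc, Otog, Ceacam16 and Otoa was not tested.

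Otogl was higher with Dox in the Lum/Aqp4 cluster. It was at 10.6 CPM in Control, 53.2 in Dox replicate 1 and 110 in Dox replicate 2, from 5, 112 and 203 UMIs. Both Dox libraries were above Control, with ratios of 5.00 (2.08 to 15.7) and 10.3 (4.35 to 32.1). Intervals cover counting error only and say nothing of the spread between cultures. Tectb had 0, 0 and 68 UMIs here, and Dox replicate 2 was at least 5.76-fold higher than Control.

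The Wfdc18/Gabrp cluster, nearly all from Dox libraries, held the most Otoa RNA there. Otoa was at 48.0 and 28.2 CPM in Dox replicates 1 and 2, Ceacam16 at 187 and 85.3 CPM and Epyc at 221 and 319 CPM. Otog was lower, at 23.8 and 10.9 CPM against 147 and 155 CPM unscaled in supporting cell-like cells. The cycling cluster had Epyc at 361 and 359 CPM in the Dox libraries, and its 1 Control cell had none. Tecta was near the limit of detection in every class, with 1, 4 and 9 UMIs over all kept cells.

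Over all cells of the 9 epithelial clusters, Epyc was the matrix gene that passed the test. It was at 1203 CPM in Control and at 297 and 251 CPM in the Dox libraries, from 2505, 3799 and 6116 UMIs. The Dox libraries lay together below Control, 4.39-fold lower in the fit (log2 -2.14, SE 0.14, edgeR adjusted p = 0.00362). It was called under every alternative that has a test, with log2 fold changes from -2.45 to -1.81 and adjusted p values up to 0.00797. A single Control cell held 621 of the 2505 Epyc UMIs (24.8%). The 3 highest cells held 59.7% in Control, against 11.3% and 9.45% in the Dox libraries. Without the highest cell of each library the log2 fold change was -1.81 (edgeR adjusted p = 0.00418). Of 6 members tested 1 was called, where 23.6% of 13734 genes were called, 9.41% as lower and 14.2% as higher. The median of the 6 was -1.58 and that of all genes 0.08. Total count scaling moved the share of calls that were higher from 60.1% to 34.4% and the median of all genes to -0.23.

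Otog and Ceacam16 had similar fold changes with a wider spread. Otog was at 107, 35.8 and 10.0 CPM (log2 -2.26, SE 0.72, edgeR adjusted p = 0.0830), and Ceacam16 at 392, 143 and 36.0 CPM (-2.14, SE 0.74, adjusted p = 0.0999). Both Dox libraries were below Control for each gene, but they differed from each other by more than 3-fold. Otog passed the test in 4 alternatives and Ceacam16 in 3, among them DESeq2's size factors in edgeR (adjusted p = 0.0238 and 0.0317). Without Dox replicate 1 their log2 fold changes were -3.44 and -3.47 and without Dox replicate 2 -1.65 and -1.52, with no test. Otoa was at 26.9, 16.7 and 10.1 CPM (-1.02, SE 0.38, adjusted p = 0.116) and Otogl at 13.9, 18.6 and 19.3 CPM (0.45, SE 0.23, adjusted p = 0.216). Tectb was at 0.961, 0.156 and 27.7 CPM (adjusted p = 0.484), and Tecta, with 0, 2 and 7 UMIs, was not tested.

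The mix of epithelial classes moved with these values. The Lum/Aqp4 cluster gave 26.0%, 15.3% and 7.08% of epithelial UMIs, supporting cell-like cells 16.5%, 15.8% and 3.08%, and the Reissner membrane-like cluster 49.0%, 9.72% and 15.7%. The Wfdc18/Gabrp cluster gave 1.40%, 21.3% and 25.2%. The Fut9/Lypd2 cluster, with no Control cell, gave 0%, 9.11% and 30.4%, and the cycling cluster 4.33%, 18.7% and 14.5%. Summed supporting cell markers were at 4964, 2121 and 884 CPM with 16, 17 and 17 of 17 detected, and 8 fibroblast markers at 313, 76.8 and 65.8 CPM with Col1a1 and Prg4 at 0 in Control. Lum made up most of the fibroblast sum, with 498, 972 and 1622 UMIs, so that sum largely follows Lum. With the test kept to clusters of at least 10 Control cells, the Epyc log2 fold change was -1.86 (edgeR adjusted p = 0.00797), and that of Otoa -2.56 (adjusted p = 0.0159). This restriction drops, among others, the Wfdc18/Gabrp cluster, which held 64.4% and 74.1% of the Otoa UMIs of the Dox libraries and 0% in Control, so the Otoa value describes only the clusters that remain.

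**Figure D4:**
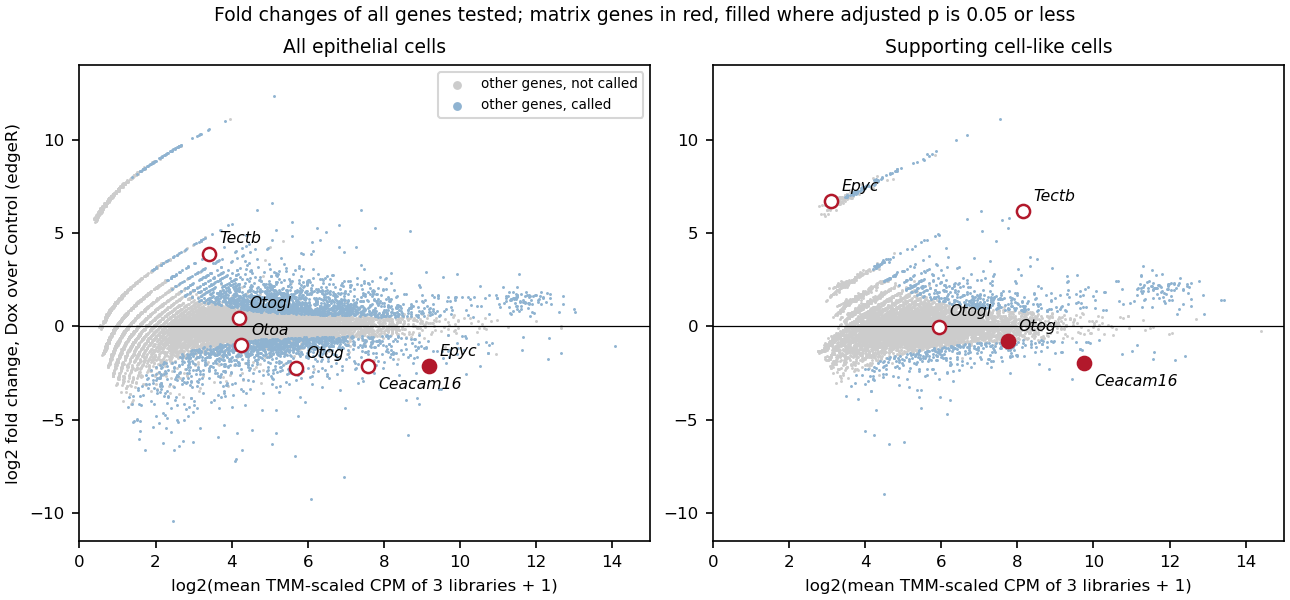
Log2 fold change with Dox (vertical) against mean level, log2(TMM-scaled CPM + 1) (horizontal), of every gene tested in all epithelial cells and in supporting cell-like cells. Red circles are the matrix genes, filled where the adjusted p is 0.05 or less: Epyc at -2.14 on the left, Ceacam16 at -1.98 and Otog at -0.81 on the right.

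Summed over every kept cell, 2 of 6 members tested were called, 1 in each direction, where 18.5% of 15421 genes were called, 8.33% as lower and 10.1% as higher. Of the calls 54.9% were higher, and 30.8% with total count scaling, which moved the median of all genes from -0.01 to -0.30. Epyc was at 417, 201 and 203 CPM (log2 -1.05, SE 0.12, edgeR adjusted p = 0.0198) and Otogl at 4.83, 12.8 and 15.5 CPM (log2 1.56, SE 0.29, adjusted p = 0.0358). Otog was at 37.1, 24.5 and 7.97 CPM (-1.21, SE 0.68, adjusted p = 0.264) and Ceacam16 at 136, 97.2 and 29.0 CPM (-1.12, SE 0.71, adjusted p = 0.313). Their values were -2.17 and -2.19 without Dox replicate 1 and -0.61 and -0.50 without Dox replicate 2, with no test. Otoa (0.06, SE 0.33, adjusted p = 0.915) and Tectb (5.06, SE 3.45, adjusted p = 0.344) were not called either, and Tecta was not tested. With no low-count filter Otog (adjusted p = 0.0246), Ceacam16 (0.0356) and Tectb (0.0256) were called in all kept cells. The Otogl call was lost with total count scaling (adjusted p = 0.0541) and the Epyc call in thinned cells (-0.43, adjusted p = 0.245). Epithelial cells were 69 of 283 kept cells in Control and 365 of 595 and 661 of 925 with Dox, so these sums hold different shares of epithelium.

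**Figure D5:**
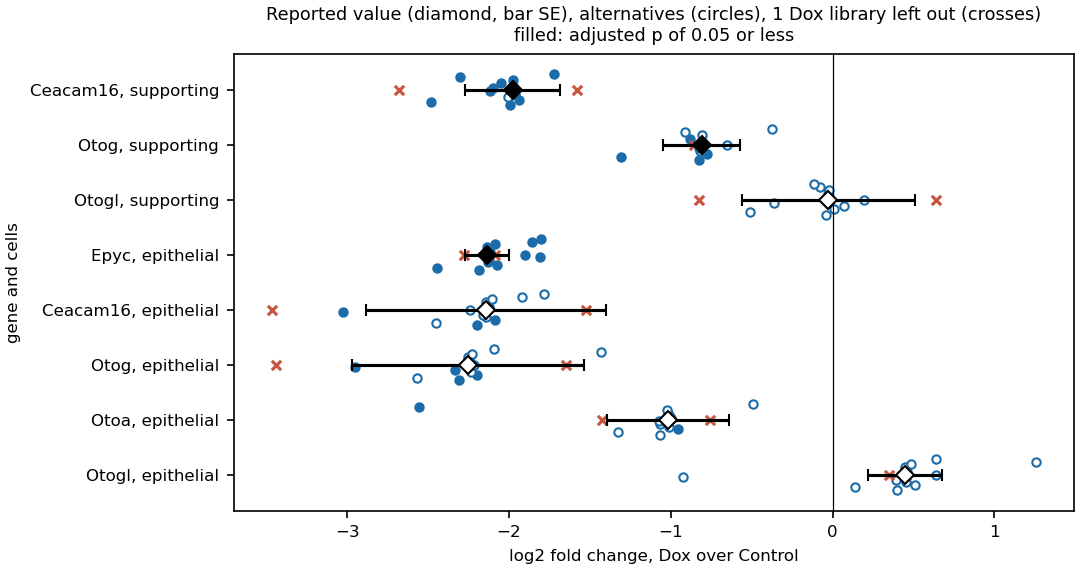
Log2 fold change (horizontal) of 8 gene and class pairs as reported (diamonds, bars are the SE), under the alternatives (circles) and without 1 Dox library (crosses, no test); filled symbols have an adjusted p of 0.05 or less. Ceacam16 in supporting cell-like cells ranges from -2.48 to -1.72 in alternatives with both Dox libraries, and Otogl lies on both sides of 0.

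Members were detected together in single cells. Among epithelial cells with at least 5000 UMIs (43, 253 and 538), all 16 Control cells with Ceacam16 also had Otog, which was in 48.8% of the 43. With Dox, 48 of 86 (55.8%) and 34 of 102 (33.3%) Ceacam16 cells had Otog, which was in 27.3% and 11.5% of cells. Of the Otogl cells, only 3 of 11 (27.3%) had Epyc in Control, where Epyc was in 37.2% of cells. In the Dox libraries 47 of 58 and 98 of 121 Otogl cells (81.0% each) had Epyc, which was in 51.4% and 40.3% of cells. None of the 7 was found in 27.9%, 26.5% and 44.4% of cells, and no cell had more than 5. Deeper cells show more genes, and depth was not equalised here.

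Across 29 sums of cluster by library with at least 20 cells, the genes closest to each member in log2(CPM + 1) were ranked by Pearson correlation, as a description over sums that share libraries and depth. Otog ran closest to Muc15 (0.88), Kcnj16 (0.87) and Fgf10 (0.86), and Otogl to Kcnj16, Wnt7a and Isl1 (0.93 each). Ceacam16 ran closest to Tmprss3, a serine protease gene of hereditary deafness (0.91), Kcnj16 (0.87) and Cdk19 (0.85). Epyc ran with Hacd2 (0.85), Reg3g (0.85) and the related proteoglycan Lum (0.83), Otoa with Fetub (0.81), Tmem171 (0.74) and Acox2 (0.71), and Tectb with Resp18 (0.80), Mapk8ip2 (0.75) and Prox1 (0.70). Between members the value was 0.79 for Otog with Otogl, 0.74 for Otog with Ceacam16 and 0.26 for Otog with Epyc. The Tectb values rest on few cells: 607 of its 684 UMIs lay in supporting cell-like cells of Dox replicate 2, 586 of them in 3 cells. Resp18, Mapk8ip2 and Prox1 had 108, 153 and 107 UMIs in all.

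Other genes of apical and tectorial matrix were read from lists. Of 7 collagens of the tectorial membrane, 6 were tested in all epithelial cells, 0 rose and 2 fell, with a median of -0.37 against 0.08 for all genes tested, of which 14.2% rose and 9.41% fell. Col9a3, a chain of collagen IX, was at 95.6, 15.1 and 26.3 CPM (log2 -2.19, SE 0.34, edgeR adjusted p = 0.0170), and Col11a2, of collagen XI, at 42.3, 19.1 and 12.7 CPM (-1.42, SE 0.30, adjusted p = 0.0327). In supporting cell-like cells 1 of 4 tested fell, Col11a1, with 13, 5 and 1 UMIs (log2 -3.89, SE 0.83, edgeR adjusted p = 0.00530). Of all genes tested in that class, 6.82% rose and 3.54% fell. Under total count scaling 1 of these 4 rose and 3 fell. Of all 8903 genes tested, 467 rose and 1458 fell under that scaling, and the median of all was -0.47.

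Of 14 other apical matrix and otolith genes, 8 were tested in all epithelial cells, 0 rose and 3 fell, beside the 14.2% and 9.41% of all genes. Muc15, a membrane mucin, was at 48.0, 7.65 and 5.54 CPM (log2 -2.88, adjusted p = 0.00669). Vmo1, also a Reissner membrane marker here, was at 2555, 317 and 562 CPM (-2.54, adjusted p = 0.0116), and Msln, mesothelin, a relative of otoancorin, at 28.8, 5.39 and 7.60 CPM (-2.13, adjusted p = 0.0141). The median of the 8 was -0.91, or -1.11 with 2 genes absent from Control set at their bound.

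In supporting cell-like cells 4 genes of that list were tested, 0 rose and 2 fell (6.82% and 3.54% of all genes there). Muc15 was at 128, 26.6 and 52.7 CPM (log2 -1.80, edgeR adjusted p = 0.00540). Otol1, otolin, a collagen-like protein of otoliths, was at 410, 259 and 172 CPM (-0.91, SE 0.26, adjusted p = 0.0338). The other 2, Vmo1 and Emilin2, had no UMI in Control, and the median of the 4 was 3.08, or 0.12 with those 2 at their bound. Under total count scaling 2 of the 4 rose and 2 fell, where 467 of all 8903 genes tested rose and 1458 fell.

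Among 15 small leucine-rich proteoglycans, the family of Epyc, 6 were tested in all epithelial cells, 0 rose and 3 fell (14.2% and 9.41% of all genes). Lum was at 239, 75.9 and 66.6 CPM (log2 -1.75, edgeR adjusted p = 0.00572), Dcn at 17.3, 1.41 and 1.07 CPM (-3.82, adjusted p = 0.00882) and Ogn at 53.8, 2.58 and 7.39 CPM (-3.37, adjusted p = 0.0199). Lum and Dcn are also among the fibroblast markers, whose summed level, mostly Lum itself, is given above. The median of the 6 was 0.28, but -1.34 with 2 genes absent from Control at their bound. Under DESeq2's size factors 1 of the 6 rose, as did 2042 of all 13734 genes tested.

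Of 11 zona pellucida domain genes, the domain of the tectorins, 2 were tested in all epithelial cells and 1 fell. Of all genes tested there, 14.2% rose and 9.41% fell. This was Tgfbr3, a co-receptor for TGF-beta, at 32.7, 6.64 and 8.54 CPM (log2 -2.09, edgeR adjusted p = 0.0112). In supporting cell-like cells 1 was tested and not called, where 10.4% of all genes were called. Of 8 mucin and von Willebrand factor domain relatives of otogelin, 2 were tested in all epithelial cells and 0 were called. The share called over all genes there was 23.6%.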

How the data were processed

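The authors deposited, per the labels, 1 filtered matrix of UMI counts per library; the counts are whole numbers, not normalized. The submitters' processing notes list Seurat 3.2.2, STAR and Cell Ranger 5.0 and build mm10 (GRCm38), while the matrix headers give software version 3.1.0; the role of each tool, strand use and intron counting are not given in the sources used here.

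A barcode needed 200 or more genes and a mitochondrial share of UMIs no higher than 20%, which left 363, 636 and 997, and of these the 80, 41 and 72 entries with under 5% of the UMIs of the same barcode in another library were left out. No doublets were removed. Clustering (Python 3.11.15 with scanpy 1.11.5, igraph 0.11.9 and leidenalg 0.10.2) used 2000 variable genes without the 7 genes, 30 components, 15 neighbours and resolution 1; a class was named from at least 3 of its markers among 25 leading genes. Clusters with Epcam in at least 40% of cells were called epithelial. UMI sums per library were tested with edgeR 4.0.16 (R 4.3.3): filterByExpr, TMM, the quasi-likelihood F test and Benjamini-Hochberg adjustment over all genes tested, called at 0.05 or less, in classes with at least 20 cells in every library. Of the epithelial classes only supporting cell-like cells reached that number. CPM of tested genes is TMM-scaled and other CPM unscaled. Folds against 0 are bounds at 3 counts per library and take the count of the other library without its counting error. Poisson and Clopper-Pearson intervals are at 95% and, like all floors, cover counting error only. The libraries are pooled cultures, so p-values reflect spread between the 2 Dox libraries (1 residual degree of freedom, possibly technical) moderated by that of all genes (prior degrees of freedom 3.89 in epithelial, 15.2 in supporting cell-like and 3.28 in all kept cells). Alternatives were DESeq2 1.42.0, its size factors, total count scaling, no low-count filter, a stricter cell filter, cells thinned to 1000 UMIs, other cluster resolutions, cells of little Malat1 (under 25% of the library median) left out, and each Dox library left out. The steps were tested on simulated counts. Changes of 2-fold were called there for 20.3% of genes in all epithelial, 8.93% in supporting cell-like and 13.0% in all kept cells. For 4-fold changes these shares were 69.4%, 60% and 76.1%, so smaller changes were mostly missed. Genes simulated without a change made up 10 of 115 calls in all epithelial cells. They made up 2 of 82 in supporting cell-like and 4 of 124 in all kept cells.

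The members and lists were chosen with earlier results of these data known. All 7 members are named in each comparison, with the 3 genes most alike per member with at least 50 UMIs, and up to 4 genes past the test per list by smallest p.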

Additional observations from a re-analysis of the deposited data

Results flagged for a closer look

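The Otoa ratios of Dox to Control lay above 1 in one epithelial class and below 1 in the other two. In Reissner membrane-like cells the ratios of Dox replicates 1 and 2 to Control were 1.65 (95% counting interval 0.27 to 17.4) and 1.40 (0.32 to 12.7), from 2, 5 and 13 UMIs, so both intervals include 1. In supporting cell-like cells Dox replicate 1 was at least 17.1-fold lower and the ratio of Dox replicate 2 was 0.37 (0.11 to 1.24). These rest on 7, 0 and 7 UMIs, of which 1 cell held 4 in Control and 1 cell all 7 in Dox replicate 2. In the Lum/Aqp4 cluster the ratio of Dox replicate 1 was 0.0062 (0.00015 to 0.037) and Dox replicate 2 was at least 47.3-fold lower. There 2 Control cells held 35 of the 36 Control UMIs. The difference between classes was not tested.

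Barcodes that failed the filters, and entered no comparison, held RNA of these genes in Dox replicate 1. Ceacam16 was at 251 CPM there (79 UMIs, 95% Poisson interval 198 to 312) against 7.56 CPM in the Control barcodes left out and 7.33 CPM (1 UMI) in those of Dox replicate 2. Epyc was at 216 CPM (68 UMIs, interval 167 to 273) against 22.7 CPM in Control and 7.33 CPM (1 UMI) in Dox replicate 2.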

How the results depend on the processing

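No paired analysis was possible because the Control group is a single library without a replicate number. Counts of called genes that moved by over 1.5 times were, in all epithelial cells (3244), 5067 with no low-count filter, 1994 in DESeq2, 593 in thinned cells and 1645 in clusters with at least 10 Control cells. In supporting cell-like cells (922) they were 1925 with total count scaling, 284 in DESeq2, 573 under the strict cell filter, 149 in thinned cells, 584 without cells of little Malat1 and 493 with shared-barcode copies kept. In all kept cells (2848) they were 5240 with no low-count filter and 1464 in thinned cells. The cause was not tested. Over all genes, counts and alternatives, 183 values kept their direction and call or stayed within their spread, 20 gained a call, 9 lost it, 8 turned sign and 21 moved beyond these limits, among them the values of Otog and Ceacam16 without Dox replicate 1. Otogl turned sign in all epithelial cells when thinned (-0.93), and in supporting cell-like cells with no filter (0.0078), in DESeq2 (0.073), without Dox replicate 1 (0.64, against -0.83 without Dox replicate 2) and without cells of little Malat1 (0.19). Otoa in all kept cells turned to -0.24 with total count scaling, -0.17 without Dox replicate 1 (0.28 without Dox replicate 2) and -0.081 without cells of little Malat1. Tectb and Tecta are limited by their few UMIs outside Dox replicate 2, and values without a Dox library have no residual degree of freedom and no test. Genes that fell under the low-count filter gave no value: Otog, Otogl and Epyc in thinned supporting cell-like cells, Otoa in thinned epithelial and kept cells, Otogl in thinned kept cells, Tectb without Dox replicate 2, and Epyc in supporting cell-like cells without Dox replicate 1 or without its highest cells. Alternatives for the other epithelial classes were not run, as none had enough cells to test.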
